A study of Mus musculus with 2 samples.

Results

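The weakest 1049 of 7610 chromatin boundaries (13.8%) in mature olfactory sensory neurons without Ldb1 were selected on their deposited boundary strength, a score that had to be under 0.25, on 20 chromosomes. Mature olfactory sensory neurons had been isolated by FACS from adult mice, both sexes mixed and strain not specified. In these neurons Ldb1, which encodes an adaptor that links DNA-binding factors to each other, was deleted with OMP-Cre, so the deletion is set only in neurons that have already switched on Omp, a gene of mature neurons. One field of the labels lists no modification, while the sample descriptions give the knockout. Both biological replicates (1000000 cells each, fixed in 1% formaldehyde, cut with DpnII) belong to this 1 group, and control neurons were not analysed here. The boundaries were called on the combined contacts of both replicates, so no value below has a replicate error, the depth behind a boundary is unknown, and the effect of the knockout cannot be read from them. A list of positions holds no expression, so the cell type label could not be set against its marker genes.

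In situ Hi-C counts how often pairs of DNA sequences lie close together in the nucleus. A boundary is a short stretch that few contacts cross, and it separates neighbourhoods whose sequences contact each other more than their surroundings. Many boundaries arise where cohesin, which extrudes DNA loops, is stopped by CTCF bound to its motif in a preferred direction. Others coincide with active promoters or with changes between active and inactive chromatin. The score of a boundary grows with the depth of the dip in crossing contacts, so a low score stands for a shallow dip.

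The score alone chose these boundaries, and it is given as a description. It ran from 0.200079 to 0.249952 with a median of 0.223 (interquartile range 0.211 to 0.235), against a median of 0.628 for the other 6561 boundaries. The lowest of these is also the lowest of the whole list, whose scores stop just above 0.2 where they are most numerous. Whether shallower dips were left out of the list is not given in the labels, so weakest means lowest among the boundaries listed. The 3 boundaries just under the limit scored 0.249952 (chromosome 14, 35725001 to 35730000, nearest start site 4930596D02Rik), 0.24988 (chromosome 3, 77565001 to 77570000, nearest Fstl5, which encodes a follistatin-like protein) and 0.249877 (chromosome 2, 99670001 to 99675000, nearest Gm10800). The 3 just above it scored 0.25002 (an exon of the axon guidance gene Sema6a), 0.250088 (an exon of Gng7, a G protein subunit gene) and 0.250099 (nearest the potassium channel subunit gene Kcnv1). Counts fell from 1049 boundaries between 0.20 and 0.25 to 733 in the next step of 0.05 and 287 in the step above 0.50, with no gap at the limit. The boundaries of 0.25 to 0.5 (2539), 0.5 to 1.5 (3378) and 1.5 or more (644) serve as comparisons below.

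**Figure D1:**
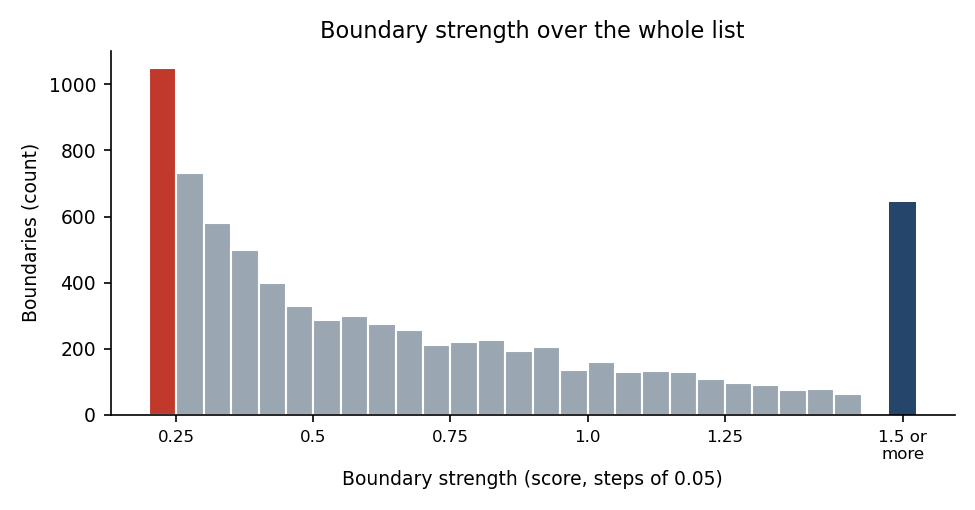
Number of boundaries (y axis) by boundary strength in steps of 0.05 (x axis, authors' score), with the 1049 boundaries under 0.25 in red and all 644 of 1.5 or more in the last bar, in dark blue. The lowest step held the most boundaries of any step under 1.5, and there was no gap at the limit.

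A few of these sites show what the sequence at a weakest boundary can hold. The 3 boundaries of lowest score with a CTCF consensus match inside their 5 kb bin are shown first, each with 24 bases on either side and the match in capitals, on the strand that carries the match (GRCm38).
Mrm2 site, chr5:140329732-140329791, forward strand: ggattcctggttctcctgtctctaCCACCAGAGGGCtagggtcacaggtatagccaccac
Ablim1 site, chr19:57057736-57057795, forward strand: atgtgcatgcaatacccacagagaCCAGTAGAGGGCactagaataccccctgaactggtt
Defb14 site, chr8:19187626-19187685, forward strand: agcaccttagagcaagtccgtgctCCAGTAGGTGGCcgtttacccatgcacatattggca
The Mrm2 site lay within the genes Nudt1, which encodes a hydrolase of oxidised nucleotides, and Mrm2, which encodes a methyltransferase of mitochondrial ribosomal RNA, outside their exons (boundary score 0.201, chromosome 5, 140325001 to 140330000). The second site lay in Ablim1, an actin-binding LIM protein gene, outside its exons (score 0.202, chromosome 19, 57055001 to 57060000). The third site lay outside protein-coding genes, in an exon of Gm39139 and near the beta-defensin gene Defb14 (score 0.204, chromosome 8, 19185001 to 19190000). These 3 are exceptions in the set, because 33 of the 1049 bins (3.15%) held a match at all. A match in so small a bin was uncommon at any strength, with 6.29% over the whole list and 9.78% at scores of 1.5 or more.

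Promoters in the bin were also uncommon, since 67 of the 1049 bins (6.39%) held a protein-coding start site, against 9.80% of the whole list. The 3 of lowest score were at Rad18, which encodes a ubiquitin ligase of post-replication DNA repair (score 0.2003, chromosome 6, 112695001 to 112700000), at Lgals8, which encodes a galectin (0.201, chromosome 13, 12460001 to 12465000), and at Park7 and Tnfrsf9 (0.201, chromosome 4, 150910001 to 150915000). Park7 encodes a protein that protects cells from oxidative stress, and Tnfrsf9 a costimulatory receptor of T cells. The Lgals8 promoter is shown as the 250 bases before its start site in RefSeq (GRCm38.p6), which overlap no annotated exon, with the DpnII site in capitals.
Lgals8, chr13:12461739-12461988, reverse strand: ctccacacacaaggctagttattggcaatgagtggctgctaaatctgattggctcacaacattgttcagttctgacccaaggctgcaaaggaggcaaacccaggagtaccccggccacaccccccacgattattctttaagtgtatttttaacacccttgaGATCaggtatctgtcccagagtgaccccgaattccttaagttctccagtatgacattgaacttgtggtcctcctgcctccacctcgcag
GATC, which reads the same on both strands, is the sequence at which the contacts were cut. It occurred in 41.9% of all 32851 such RefSeq windows, and the CTCF consensus on either strand in 0.508%. The Lgals8 window held 4 CG dinucleotides, against a median of 6 over all windows.

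The weakest boundaries lay in gene-poor sequence. The median distance from the bin to the nearest protein-coding transcription start site (1 per gene) was 120 kb (95% interval of the median 95.7 to 140 kb, interquartile range 18.6 to 398 kb), against 25.8 kb (24.3 to 27.3 kb) for all other boundaries. For boundaries of 0.25 to 0.5 it was 48.6 kb, for 0.5 to 1.5 it was 19.7 kb and for 1.5 or more 17.4 kb. The median of the weakest boundaries was the larger on 20 of 20 chromosomes. These and all later intervals are 95% intervals that cover counting only and treat boundaries as independent, which neighbours are not.

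A start site lay within 10 kb of 197 of the 1049 boundaries (18.8%, exact interval 16.5 to 21.3%), where the whole list had 31.1% and the other boundaries 33.1%. The difference to the others was -14.3 percentage points (Newcombe interval -16.8 to -11.6), and it was negative on all 20 chromosomes. Within the bin itself 67 boundaries (6.39%) held a start site, against 10.3% of the others. The share rose from 18.8% over 26.2% to 37.6% across the first 3 score ranges and was 36.5% at scores of 1.5 or more, and the intervals of the top ranges overlapped (36.0 to 39.3% and 32.8 to 40.3%).

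Even so, start sites were densest at the boundary. They numbered 7.34 per 100 bins in the bin of a weakest boundary and 3.53 per 100 bins at 200 to 300 kb from it, a ratio of 2.08. The ratio was 1.86 for boundaries of 0.25 to 0.5, 2.27 for 0.5 to 1.5 and 2.02 for 1.5 or more. The weakest boundaries therefore had fewer start sites both in the bin and far from it, and the ratio of bin to surroundings lay within the range of the other score ranges.

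Of the 1049 boundaries, 680 lay outside protein-coding genes (64.8%, exact interval 61.8 to 67.7%), where the whole list had 53.9% and the other boundaries 52.1%. The difference of 12.7 points (9.5 to 15.8) was positive on 20 of 20 chromosomes. Exons were overlapped by 220 (21.0%), against 34.6% of the others. Another 149 lay wholly in introns (14.2%, 12.1 to 16.5%), and the share of the others, 13.2%, was inside that interval. Being outside genes did not fall steadily with score, since it was 58.1% at 0.25 to 0.5, 46.0% at 0.5 to 1.5 and 61.2% at 1.5 or more.

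Gene deserts, taken as sequence with no protein-coding start site within 500 kb of the bin, held 202 of the weakest boundaries (19.3%, exact interval 16.9 to 21.8%). Over the whole list 7.24% of boundaries lay in such deserts, and 5.32% of the others did, a difference of 13.9 points (11.6 to 16.5) with the same sign on 20 of 20 chromosomes. The share was 11.5% at 0.25 to 0.5, 1.48% at 0.5 to 1.5 and 1.24% at 1.5 or more. Of the 551 boundaries in deserts, 202 were among the weakest and 8 scored 1.5 or more. The weakest boundaries farthest from any start site were 2 on chromosome 14, at 91160001 to 91165000 (score 0.202, 2689 kb from Pcdh20) and 91450001 to 91455000 (0.204, 2436 kb from Pcdh9). Both genes encode protocadherins, adhesion proteins of the nervous system. The other was on chromosome 1 at 102235001 to 102240000 (0.208, 2462 kb from Cntnap5b, a contactin-associated protein gene).

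**Figure D2:**
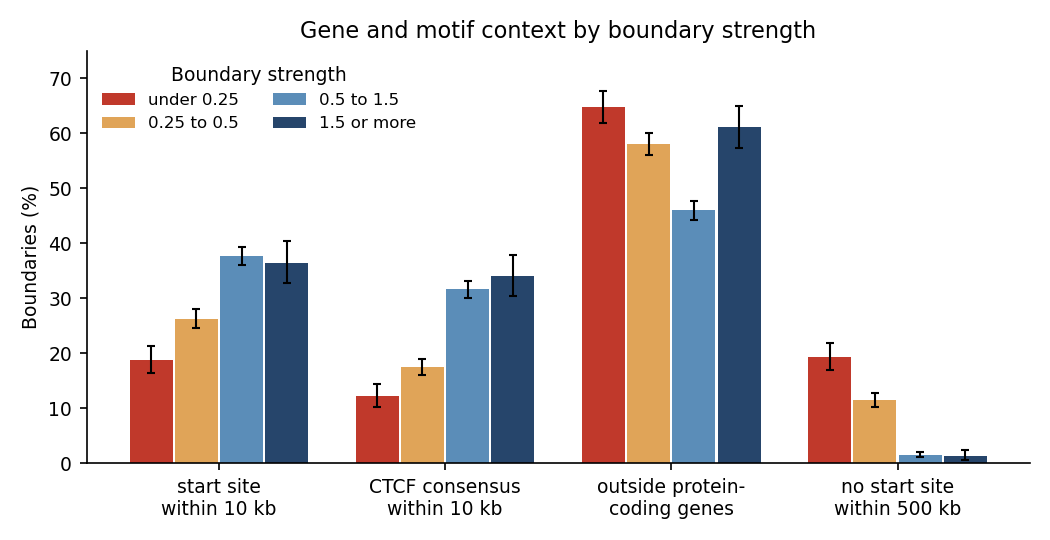
Share of boundaries (y axis, %) with each of 4 features, in 4 ranges of boundary strength. Error bars are exact 95% binomial intervals. Boundaries under 0.25 (red) had the lowest shares with a start site (18.8%) or a CTCF consensus (12.2%) within 10 kb and the highest share with no start site within 500 kb (19.3%).

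At the other end, some weakest boundaries stood in dense gene neighbourhoods. The one with most start sites within 10 kb, 4, was on chromosome 8 (105700001 to 105705000, score 0.225). Its bin held the start sites of Pard6a, a cell polarity gene, and Acd, which encodes a telomere-binding protein, on opposite strands, and those of Enkd1 and 4933405L10Rik lay beside it. A further 9 boundaries tied at 3, of which the 2 first by position are described here. One was at the start of Ugt1a1 in the Ugt1a gene cluster of glucuronosyltransferases, enzymes that conjugate bilirubin and drugs (chromosome 1, 88210001 to 88215000, score 0.240), with Ugt1a2 and Dnajb3 also in range. The other had Pla2g4b, a phospholipase gene, with Jmjd7 and the overlapping model Gm28042 (chromosome 2, 120035001 to 120040000, score 0.226). These bins had GC contents of 57.1%, 45.5% and 56.7%, above the median of 40.0% for the set.

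The 149 boundaries wholly inside introns sat in long genes. Their host genes had a median length of 452 kb, against 243 kb for the 867 intronic boundaries among the others, and 71 of the 149 (47.7%, exact interval 39.4 to 56.0%) had a host of 500 kb or more, against 28.6% (25.6 to 31.7%). In all, 136 genes hosted them, and 14 genes hosted more than 1. Ctnna3, which encodes an alpha-catenin and spans 1574 kb on chromosome 10, held the most, with 3 intronic boundaries scoring from 0.2002 to 0.227. Other genes with 2 were Lsamp (2197 kb, a cell adhesion protein of neurons), Lrp1b (2058 kb, a lipoprotein receptor family member), Lingo2 (1245 kb) and Adgrb3 (762 kb, an adhesion receptor). Ctnna3 and these examples were chosen after their values were seen. A longer gene has more room for intronic boundaries, and host length was not adjusted for.

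The GC content of the bins matched this setting. Median GC content was 40.0% (39.7 to 40.3%, interquartile range 37.4 to 43.5%) against 43.2% (43.0 to 43.4%) for the others, and lower on 20 of 20 chromosomes. Soft-masked repeats made up a median of 29.1% (27.6 to 30.6%) against 27.2% (26.8 to 27.8%), larger on 14 of 20 chromosomes. They made up 28.1% (27.1 to 28.7%) at 0.25 to 0.5 and 28.5% (27.3 to 29.6%) at 1.5 or more. Both intervals overlapped that of the weakest, so repeat content was not particular to them. The number of DpnII sites, which sets how finely contacts can be placed, had a median of 12 per bin in the weakest set and in each of the other score ranges. Gap bases lay within 100 kb of 3 of the 1049 boundaries (0.286%) and of 0.884% of the others.

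Matches to the CTCF consensus were scarcer at the weakest boundaries. A match lay within 10 kb of 128 of the 1049 (12.2%, exact interval 10.3 to 14.3%), against 24.4% of the whole list and 26.4% of the others. The difference was -14.2 points (-16.3 to -11.8) and negative on 20 of 20 chromosomes. The share was 17.5% at 0.25 to 0.5, 31.6% at 0.5 to 1.5 and 34.0% at 1.5 or more. A match is a sequence and not a measurement of CTCF binding.

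GC content moves with both features, so the shares were also taken within 3 ranges of GC that divide the weakest boundaries evenly, with limits at 38.1% and 42.1%. In the lowest range 3.68% of the weakest boundaries had a CTCF match within 10 kb, against 9.91% of the others, a difference of -6.23 points (-8.84 to -3.14). In the middle range the shares were 8.65% and 17.9% (difference -9.26, interval -12.4 to -5.44), and in the highest 24.4% and 34.4% (difference -10.0, interval -14.5 to -5.02). CTCF matches were thus scarcer than at the other boundaries as a whole in each range. Against boundaries of 0.25 to 0.5, which had 6.91%, 10.8% and 27.3%, the differences were -3.23 points (-6.03 to -0.136), -2.17 points (-5.62 to 1.78) and -2.94 points (-7.90 to 2.43), so only that of the lowest GC range was beyond counting error. For start sites the shares were 9.07% and 12.5% in the lowest range (difference -3.41, interval -6.87 to 0.584), 11.2% and 24.2% in the middle (difference -12.9, interval -16.5 to -8.73) and 36.1% and 42.3% in the highest (difference -6.19, interval -11.3 to -0.793). The difference in start sites to all others was within counting error in the most AT-rich range and beyond it in the other two. Against boundaries of 0.25 to 0.5 it was -0.952 points (-4.69 to 3.13), -7.38 points (-11.5 to -2.84) and -3.38 points (-9.01 to 2.48), beyond counting error in the middle range only. These ranges were chosen after the GC content had been seen, and GC was not matched within a range. The highest, open above 42.1%, held 349 of the weakest boundaries and 3814 of the others.

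Both features together were seen at 40 of the weakest boundaries (3.81%), a start site alone at 157 (15.0%), a CTCF match alone at 88 (8.39%) and neither at 764 (72.8%, exact interval 70.0 to 75.5%). Of the other boundaries 49.8% had neither, and of those of 0.25 to 0.5 62.0% (60.1 to 63.9%). Among boundaries with no start site within 10 kb, a CTCF match was near 10.3% of the weakest (8.37 to 12.6%) and 25.6% of the others. At 0.25 to 0.5 it was near 15.9% (14.3 to 17.6%). Among boundaries with a start site within 10 kb, it was near 20.3% of the weakest (14.9 to 26.6%) and 28.0% of the others. There the range of 0.25 to 0.5 had 21.9% (18.8 to 25.3%), an interval that overlapped that of the weakest. In deserts a CTCF match was near 4 of the 202 weakest (1.98%, 0.542 to 4.99%) and 8.31% of the others (5.64 to 11.7%). At 0.25 to 0.5 the desert share was 7.22% (4.52 to 10.8%), and its interval overlapped that of the weakest.

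Where CTCF matches were present, most pointed away from the boundary, as at stronger boundaries, though by a smaller margin than at the strongest. Of 440 matches within 50 kb of a weakest boundary and outside its bin, 280 pointed away from it (63.6%, exact interval 58.9 to 68.1%). A match near more than 1 boundary counted for each. Of 199 to the left, 131 lay on the reverse strand, and of 241 to the right, 149 lay on the forward strand. The share was 60.4% (57.8 to 62.9%) at 0.25 to 0.5, 68.6% (67.0 to 70.1%) at 0.5 to 1.5 and 70.9% (67.4 to 74.2%) at 1.5 or more. The weakest set differed from these by 3.23 points (-1.99 to 8.28), -4.92 points (-9.77 to -0.287) and -7.23 points (-12.8 to -1.66), so it was below the upper ranges and not told apart from the adjacent one. Matches shared between boundaries make these intervals too narrow. The number of matches rose with score over the 4 ranges, with 41.9 per 100 boundaries in the weakest set, 56.8 at 0.25 to 0.5, 101 at 0.5 to 1.5 and 110 at 1.5 or more. Forward matches were most frequent 5 kb to the right of a weakest boundary, at 2.67 per 100 bins (28 matches), against 0.572 (6 matches) 5 kb to its left. Reverse matches within 50 kb were most frequent 10 kb to the left, at 1.91 (20 matches), but the same number lay 85 kb to the left, so this is no clear peak.

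**Figure D3:**
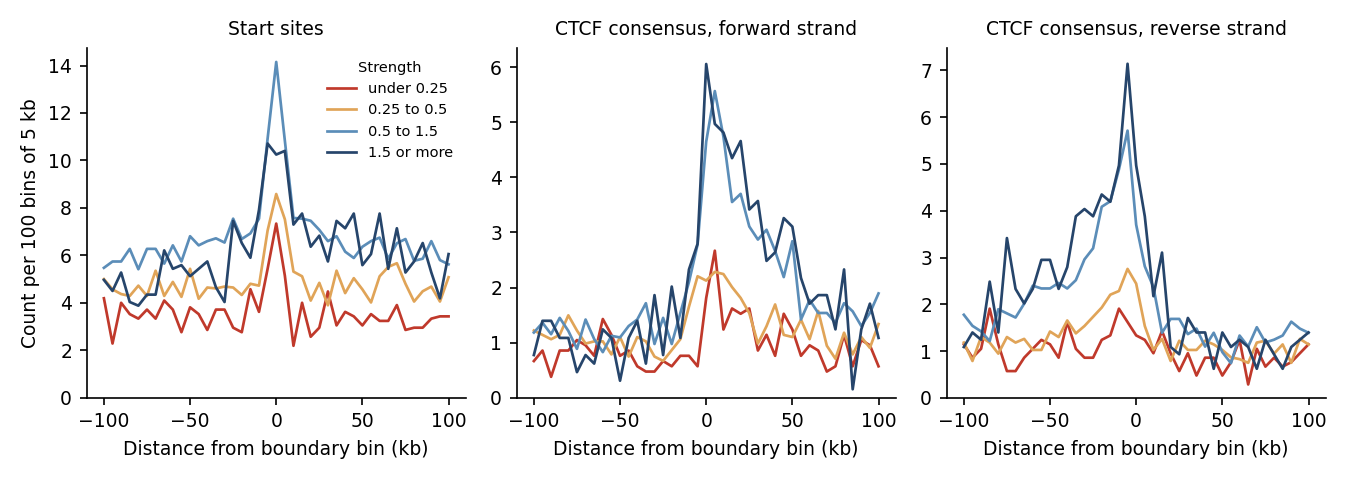
Mean number of protein-coding start sites (left) and of CTCF consensus matches on the forward (middle) and reverse strand (right) per 100 bins of 5 kb, against the distance from the boundary bin in kb, for 4 ranges of boundary strength. Start sites peaked in the bin of the weakest boundaries (red) at 7.34 per 100 bins, and forward matches peaked 5 kb to the right at 2.67, both below the peaks at scores of 0.5 to 1.5. The forward peak of the weakest was not the lowest, since at 0.25 to 0.5 it was 2.28.

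Chromosome X carried the largest share of weakest boundaries. There 108 of 424 boundaries scored under 0.25 (25.5%, exact interval 21.4 to 29.9%), against 941 of 7186 (13.1%) on the autosomes together. The autosomes ran from 9.74% on chromosome 11 (41 of 421, 7.08 to 13.0%) to 17.2% on chromosome 8 (65 of 377, 13.6 to 21.4%), and neighbours in this order had overlapping intervals. Among autosomes, only the interval of chromosome 11 lay clear of any other, and it was below those of chromosomes 3 and 8. The interval of chromosome X met that of chromosome 8 at 21.4% and lay above those of the other 18 autosomes. Weakest boundaries numbered 0.661 per Mb of ungapped sequence on chromosome X and 0.393 per Mb on the autosomes, while other boundaries numbered 1.93 per Mb on chromosome X, the lowest of the 20. The mice were of mixed sex, and its part in these values cannot be told apart from the chromosome.

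Set against gene density (protein-coding genes per Mb), the share of weakest boundaries had a Spearman's rho of -0.374 over the 20 chromosomes, and of -0.293 over the 19 autosomes. For the number of weakest boundaries per Mb it was -0.149 and -0.0386, close to no relation. These are given as descriptions of points that share 1 list. The weakest boundaries of chromosome X were AT-rich and repeat-rich, with a median GC of 38.5% and 42.6% soft-masked sequence, and 5 of 108 (4.63%, 1.52 to 10.5%) had a CTCF match within 10 kb. The other boundaries of chromosome X had values of 39.8%, 39.1% and 12.3%. None of the 108 bins held a CTCF match in the bin itself (exact upper bound 3.36%). Among the other boundaries of chromosome X, 7 of 316 bins did (2.22%), a share inside that bound, so the 2 are not told apart.

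**Figure D4:**
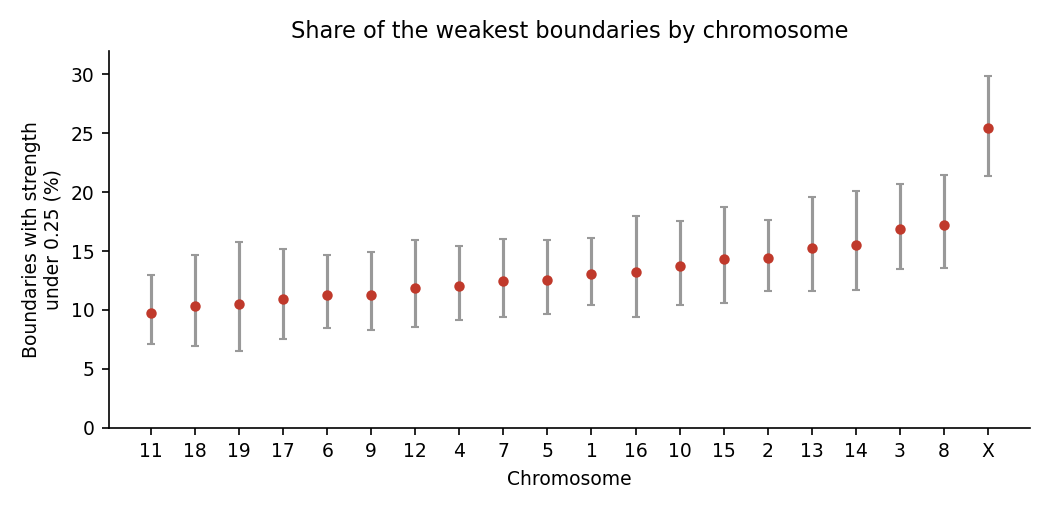
Share of boundaries with strength under 0.25 (y axis, %) on each chromosome (x axis, ordered by that share). Points are shares and bars exact 95% binomial intervals. Chromosome X stood highest at 25.5% and chromosome 11 lowest at 9.74%.

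The spacing of weakest boundaries to their nearest neighbour was that of any boundary. The median distance to the nearest other boundary of any score was 205 kb (interval 195 to 215 kb, interquartile range 145 to 295 kb), and it was also 205 kb for the other boundaries (200 to 205 kb). No pair in the list was closer than 50 kb. Counted over both sides, the spacing gave a slightly longer span, with a median of 615 kb between the boundaries on either side of a weakest one (590 to 635 kb), against 560 kb for the others (550 to 570 kb) and larger on 16 of 20 chromosomes. Removing the 1049 boundaries from the list raised the median spacing of the rest from 265 to 290 kb and the number of spacings above 1000 kb from 168 to 316.

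The intervals around weakest boundaries are described by their length. Between consecutive boundaries of 0.25 or more there were 6541 intervals, and 875 of them held at least 1 weakest boundary. Intervals without one had a median length of 265 kb (260 to 265 kb), those with 1 had 575 kb (545 to 605 kb, 733 intervals), those with 2 had 1020 kb (119 intervals) and those with 3 or more 1485 kb (23 intervals). Of intervals under 300 kb 1.87% held a weakest boundary (64 of 3425), of those from 500 to 700 kb 29.5% (190 of 645), and of those of 1000 kb or more 63.5% (202 of 318, exact interval 58.0 to 68.8%). These values follow at least in part from the score rule: an interval that holds a weakest boundary is made of at least 2 spacings of the full list, whose median was 265 kb, and is set against single spacings. They therefore cannot be read as showing where the weakest boundaries were placed. For the 1045 weakest boundaries with a stronger neighbour on each side, the median length of the interval was 715 kb (685 to 745 kb). Under the same definition, which treats all boundaries alike, it was 655 kb (625 to 675 kb) at 0.25 to 0.5, 585 kb at 0.5 to 1.5 and 720 kb (680 to 760 kb) at 1.5 or more. This order depended on the neighbours used. Between neighbours of higher score than the boundary itself, it was 650 kb for the weakest, 785 kb at 0.25 to 0.5, 1530 kb at 0.5 to 1.5 and 10715 kb at 1.5 or more. The weakest had the shorter intervals on 20 of 20 chromosomes. This order follows at least in part from the score rule, since few neighbours score above a strong boundary and most score above a weak one. It therefore says nothing on placement.

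The extremes show the range of these intervals. The longest ran for 3985 kb on chromosome X, with the weakest boundary (126360001 to 126365000, score 0.207, nearest start site Gm17267) 505 kb from its nearer neighbour. The next, 3905 kb, was on chromosome 7 in a region of vomeronasal receptor genes, and its weakest boundary (23715001 to 23720000, score 0.210) lay 170 kb from one neighbour and 14.3 kb from the start site of Vmn1r173, a pheromone receptor gene. The last of the 3 longest, 3230 kb, was on chromosome 14, 1064 kb from the nearest start site, Trim52 (107170001 to 107175000, score 0.246). The shortest 3 spanned 195 kb around the start site of Tmbim6, an inhibitor of cell death (chromosome 15, 99390001 to 99395000, score 0.231), 210 kb at Isg20l2 and Rrnad1 (chromosome 3, 87935001 to 87940000, score 0.216) and 215 kb beside Gpr61, an orphan receptor gene (chromosome 3, 108155001 to 108160000, score 0.218). The short intervals all had a start site within 10 kb of the boundary, and none of the 3 long ones did.

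Within its interval a weakest boundary tended to lie towards the middle, as boundaries of every strength did. Between neighbours of 0.25 or more, its median was slightly nearer to a neighbour than that of the other boundaries as a whole. On a scale from 0 at a stronger neighbour to 0.5 midway, the median position was 0.363 (0.351 to 0.370), against 0.381 (0.378 to 0.384) for the others. Boundaries of 0.25 to 0.5 had 0.376 (0.372 to 0.382). Those of 1.5 or more had 0.356 (0.342 to 0.368), an interval that overlapped that of the weakest. Between the adjacent boundaries of any score, the weakest had 0.375 (0.368 to 0.386) and the others 0.388 (0.385 to 0.392), and these intervals overlapped. The order depended on the neighbours used: between neighbours of higher score than the boundary itself, the weakest had 0.369 (0.363 to 0.378) and the others 0.338 (0.334 to 0.343). Those neighbours are picked with the score that defined the set, so these 2 values are not an independent comparison. The 733 weakest boundaries that stood alone between both stronger neighbours were set against the stretch left to them by the smallest spacing of 50 kb. Of these, 401 (54.7%, exact interval 51.0 to 58.4%) lay in the central part that makes up 33.3% of that stretch. At 0.25 to 0.5 it was 58.6% (56.3 to 60.8%), an interval that overlapped, at 0.5 to 1.5 it was 63.8% (61.9 to 65.7%) and at 1.5 or more 56.3% (51.7 to 60.9%). The 33.3% takes all places beyond the 50 kb margin as equally open, but the lower quartile of spacings in the list was 185 kb. The share was above 33.3% at every strength, so this excess is no trait of the weakest. In intervals under 500 kb the weakest had 58.5% (52.6 to 64.2%), clear of the 68.0% (64.7 to 71.2%) at 0.25 to 0.5, while in intervals of 500 kb or more they had 52.3% and 51.1%.

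The lone boundaries had no side or stronger neighbour to which they leaned. They were nearer the left neighbour in 348 cases, nearer the right in 376 and midway in 9. Of the 724 not midway, 351 were nearer to the higher-scoring of both neighbours (48.5%, exact interval 44.8 to 52.2%).

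**Figure D5:**
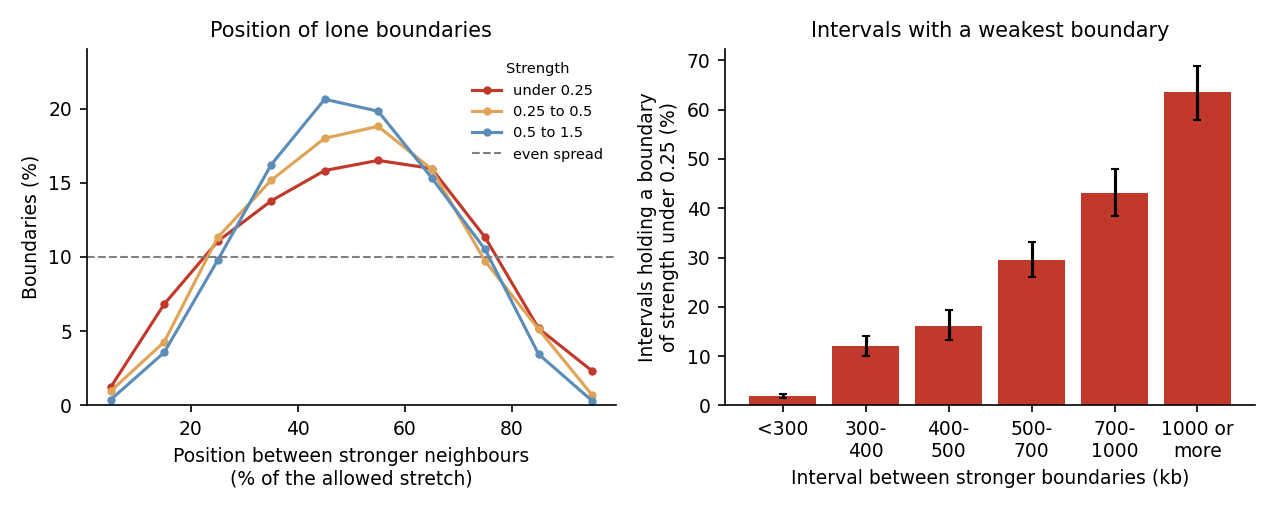
Left, position of boundaries that stand alone between neighbours of 0.25 or more, in 10 equal parts of the stretch left after a margin of 50 kb at each end (x axis, %), as a share of boundaries (y axis, %), for 3 ranges of strength, with the even spread as a dashed line. Right, share of intervals between boundaries of 0.25 or more that held a weakest boundary (y axis, %), by interval length in kb, with exact 95% binomial intervals, from 1.87% under 300 kb to 63.5% at 1000 kb or more, a rise that follows at least in part from joining spacings at each weakest boundary.

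Weakest boundaries were next to each other somewhat more often than the other boundaries as a whole were next to one, but not clearly more often than those of the adjacent score range. At least 1 adjacent boundary was also among the weakest for 312 of the 1049 (29.7%, exact interval 27.0 to 32.6%), against 24.1% of the others (23.1 to 25.2%). It was 26.1% (24.4 to 27.8%) at 0.25 to 0.5 and 26.9% (23.5 to 30.5%) at 1.5 or more, where the intervals overlapped that of the weakest. They formed 737 single boundaries, 119 pairs, 19 runs of 3, 3 runs of 4 and 1 run of 5. The run of 5 lay on chromosome X around Diaph2, which encodes a formin that nucleates actin filaments, between 129420001 and 131190000. Its scores were 0.205, 0.206, 0.242, 0.212 and 0.228 in order along the chromosome, the boundary of 0.242 lay in an intron of Diaph2, and the stronger boundaries around the run were 2610 kb apart.

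Within the set, most context measures did not differ between lower and higher scores beyond counting error. Split at the midpoint of its range (score 0.225), the lower part of 579 boundaries and the upper part of 470 had a start site within 10 kb at 17.4% and 20.4%, a CTCF match at 11.6% and 13.0%, and a desert position at 19.3% and 19.1%, and each difference had an interval that included 0 (-7.81 to 1.76, -5.50 to 2.56 and -4.65 to 4.94 points). Boundaries outside genes were more frequent in the lower part (68.2%, 64.3 to 72.0%) than in the upper (60.6%, 56.1 to 65.1%), a difference of 7.58 points (1.77 to 13.4). The 3 lowest scores of the list were 0.200079 in an intron of Sh3bgrl2 (chromosome 9, 83615001 to 83620000), 0.200104 on chromosome X (121170001 to 121175000, 857 kb from H2afb3, a histone variant gene) and 0.200178 on chromosome 15 (4595001 to 4600000, 127 kb from the complement gene C6). None of these 3 had a start site or a CTCF match within 10 kb.

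Olfactory receptor (OR) genes lie in tandem clusters, and each mature neuron expresses 1 of them from a choice that involves Ldb1. In the 41 OR clusters (at least 3 OR genes, gaps of at most 200 kb), 19 weakest boundaries were found in 13 clusters, which is 1.81% of the set (exact interval 1.09 to 2.81%), against 0.793% of the others (0.592 to 1.04%). Over the whole list it was 0.933% (71 of 7610). The share was higher in the weakest set than in the others on 10 of 20 chromosomes and lower on 5. Per score range the shares were 1.18% at 0.25 to 0.5, 0.326% at 0.5 to 1.5 and 1.71% at 1.5 or more, so the excess was not particular to the weakest. Chromosome 2 had 5 of the 19, chromosome 9 had 3, and 15 lay within 10 kb of an OR start site. Those whose bin held an OR start site were at Olfr705 on chromosome 7 (score 0.208), Olfr972 on chromosome 9 (0.226) and Olfr115 on chromosome 17 (0.216). In the largest cluster, with 217 OR genes on chromosome 2, the weakest boundaries were nearest to Olfr1054 (0.219), Olfr1152 (0.201) and Olfr1189 (0.230). The OR genes in this paragraph were named after their positions were seen.

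A weakest boundary at the promoter was rare among all genes, and the short lists of olfactory lineage genes held no case. Of all 21755 protein-coding genes, 1.14% had their start site within 10 kb of one, and 3116 within 10 kb of any boundary. None of 25 genes of mature olfactory neurons did (exact upper bound 13.7%), although 3 lay at a boundary of some score. The same count was 0 of 25 for the Ldb1 complex and receptor choice (4 at any boundary), 0 of 18 for CTCF and cohesin (6 at any boundary) and 0 of 12 for immature neurons (1 at any boundary). It was 0 of 10 for progenitors, 0 of 7 for horizontal basal cells and 0 of 10 for sustentacular and gland cells. The 1 gene found was Aif1 of the immune and vascular list (1 of 10), a marker of macrophages and microglia, with its start site 6.07 kb from a boundary of 0.249 outside protein-coding genes (chromosome 17, 35165001 to 35170000). With 1.14% of all genes there, lists of 7 to 25 genes are too short to set apart from the rest.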

How the data were processed

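Per the labels' design text, the authors combined contact pairs of 2 replicates into 1 matrix on GRCm38 (also named in the submitters' processing notes), computed diamond insulation scores and called boundaries. The deposited boundary strength is a score computed by the authors. The caller (not given in the sources used here) and its window and thresholds are unknown. The class column was not used.

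Bins of 5 kb were set against the GRCm38 sequence, GENCODE M21 genes (21755 protein-coding) and RefSeq promoter windows. No bin lay past a chromosome end. The CTCF consensus of 12 bases was searched on both strands (12728 matches, 17.4% mostly soft-masked). Distances run from the bin edge for genes and between bin starts for boundaries. With 1 pooled list no test was run. Shares have exact 95% binomial intervals, differences Newcombe intervals and medians order-statistic intervals. The score limit came from the definition of the set, and members and gene lists were chosen with earlier results of these data known. Named genes are those nearest to the extremes of score, start-site number and distance, interval length, the longest run, the printed sequences and the gene lists, and exceptions are stated. Functions were tested on simulated data. Python 3.11.15, numpy 2.4.6, pandas 2.3.3, scipy 1.17.1, statsmodels 0.14.6 and matplotlib 3.10.9 were used.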

Additional observations from a re-analysis of the deposited data

How the results depend on the processing

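No paired analysis was possible because both replicates are of 1 group, and none was left out since only their combined contacts were called, at unknown depth. Of 45 other settings 36 gave a value inside the 95% interval of the one reported, and so did 6 of the 8 that were added later, after values had been seen (those on deserts and on boundaries near or far from start sites). No difference in a share changed sign. The order of weakest against other boundaries turned between neighbours of higher score, for interval length (650 against 1260 kb) and position (0.369 against 0.338). Such neighbours are picked with the score that defined the set, which sets the order of length at least in part. The start-site difference was -3.96 points within the bin only and -21.3 within 25 kb. The CTCF difference was -3.65 points within the bin only and -19.7 within 25 kb. The difference outside genes was 8.30 points where a start site lay within 500 kb, and the desert difference was 23.5 points with a distance of 250 kb. The interval between stronger neighbours was 650 kb for members under the midpoint score and 835 kb for members below 0.3. In both settings the score limit of the neighbours moved with that of the members. With neighbours kept at 0.25 or more, it was 710 kb (665 to 750 kb) for members under the midpoint score. It was 1360 kb between neighbours of 0.5 or more and 650 kb between neighbours of higher score than the member. Between neighbours of 0.5 or more the position was 0.311. Each of these settings measures another window, neighbour, distance or set of boundaries than the value reported.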
